A study of Mus musculus with 4 samples.

Results

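The miRNAs described here are those of the imprinted Dlk1-Dio3 region of mouse chromosome 12, measured in splenic CD4+ T cells of a lupus-prone and a control mouse. They were picked by name, from 44 hairpin numbers of the region, in the tables of changed miRNAs that were deposited for the study. A total of 10 mature miRNAs from 9 of these hairpins stood in the tables, out of 114 listed miRNAs. The other 35 hairpins had no listed mature miRNA, and they are not read as unchanged, since the tables leave out miRNAs under the 2-fold limit and those under 100 reads over both libraries.

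The 1 MRL/lpr mouse carries the lpr mutation of Fas on the MRL background, and the 1 B6 mouse is C57BL/6J without that mutation. Both were females of 16 weeks, and their splenic CD4+ T cells were enriched by removing other spleen cells with magnetic beads. Each mouse gave 1 small RNA and 1 mRNA library, although the design text of the series speaks of a pair of B6 mice. With 1 library per strain there was no replicate error, no test between strains was possible, and strain background, the lpr mutation, disease and the single mouse cannot be told apart. Fewer cells of a type and less RNA per cell cannot be told apart either in such bulk samples. MRL/lpr mice are known to accumulate T cells with neither CD4 nor CD8. None of the 9 genes of a CD4 T cell marker list stood in the mRNA tables, which hold changed predicted targets only, so the labelled cell type could not be checked.

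A miRNA is a short RNA cut from a hairpin precursor, and the bases at positions 2 to 8 from its 5′ end, the seed, do most of the pairing with target mRNAs. The Dlk1-Dio3 region is imprinted: its protein-coding genes Dlk1, Rtl1 and Dio3 are made from the paternal chromosome, while the long RNAs Meg3, Rian and Mirg and one of the largest miRNA clusters of the mammalian genome are made from the maternal one. These miRNAs are abundant in embryo, placenta and brain and scarce in most adult tissues. In mice, miR-127 and miR-434 lie opposite the coding sequence of Rtl1 and can pair with its mRNA without a mismatch. Higher levels of miRNAs of this region have been described in splenic lymphocytes of lupus-prone mice.

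The sequences of all 10 listed miRNAs are shown because their seeds decide which mRNAs a prediction pairs with them. They are mature sequences of RefSeq (GRCm38.p6), in the order of the hairpins along the plus strand of chromosome 12, with the seed in capitals, and all 10 are identical to the deposited sequences.
miR-127-3p: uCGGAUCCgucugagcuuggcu
miR-434-5p: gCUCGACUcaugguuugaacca
miR-434-3p: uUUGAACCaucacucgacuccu
miR-379-5p: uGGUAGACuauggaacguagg
miR-411-5p: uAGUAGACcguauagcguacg
miR-300-3p: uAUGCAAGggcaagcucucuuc
miR-381-3p: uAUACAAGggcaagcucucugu
miR-541-5p: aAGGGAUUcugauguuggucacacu
miR-409-3p: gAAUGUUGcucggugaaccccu
miR-410-3p: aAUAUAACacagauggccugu

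No seed was shared: the 10 miRNAs had 10 distinct seeds, and no other listed miRNA had any of them. There were 2 look-alike pairs among the 45 pairs of members, with seeds that differ at 1 base. MiR-300-3p and miR-381-3p were identical at 19 of 22 positions, and the substitution in the seed is G4A, counted from 1 at the 5′ end with the base of miR-300-3p first. MiR-379-5p and miR-411-5p were identical at 14 of 21 positions, with G2A in the seed, the base of miR-379-5p first. The remaining pairs matched at 9 positions or fewer.

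The 9 hairpins fall into a pair and a longer group. Mir127 (chr12:109592846-109592915) and Mir434 (chr12:109594506-109594599) lie inside the RefSeq interval of Rtl1 and span 1.75 kb. The other 7 hairpins, from Mir379 (chr12:109709060-109709125) to Mir410 (chr12:109743715-109743795), span 34.7 kb that begin 114 kb further along. Of these, Mir541, Mir409 and Mir410 lie inside the RefSeq interval of Mirg, and Mir379, Mir411, Mir300 and Mir381 lie ahead of it. Between Mir379 and Mir410 there are 31 hairpins of the cluster, of which 7 had a listed miRNA. None was listed among the 8 hairpins upstream of Mir127 or the 3 between Mir434 and Mir379.

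All 10 listed miRNAs of the cluster were higher in MRL/lpr, by 6.94-fold to 22.1-fold, and none was in the table of lower miRNAs. Among all 114 listed miRNAs, 60.5% were higher. The 2 shares are not set against each other as a result, because 8 of the 10 had under 100 reads in B6 and passed the minimum of the tables only through MRL/lpr. Levels are given as RPM, the reads of a miRNA scaled by the trimmed reads of its library, which numbered 29971024 in MRL/lpr and 33634335 in B6. The interval beside a fold is an exact 95% Clopper-Pearson interval for how a miRNA's reads divide between the libraries, turned into a fold. It covers counting error only, not the spread between mice, and reads are not independent molecules. Together the 10 miRNAs had 22473 reads in MRL/lpr and 1350 reads in B6, which is 749.8 RPM and 40.1 RPM, a fold of 18.7 (interval 17.7 to 19.8). They made up 0.345% of the miRNA total in MRL/lpr and 0.0222% in B6, so the cluster was a minor part of the miRNA pool of both libraries.

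**Figure D1:**
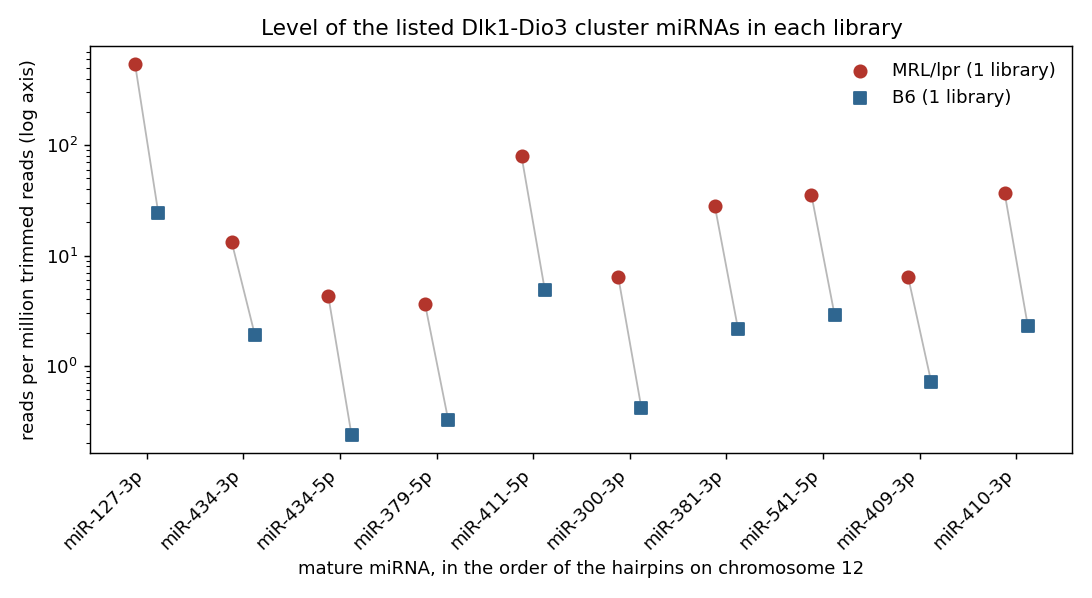
Level of each listed cluster miRNA in RPM on a log axis, with 1 library per strain: red circles are MRL/lpr and blue squares are B6. MiR-127-3p is the highest of the 10 in both libraries, at 536.9 RPM in MRL/lpr and 24.3 RPM in B6, and each grey line joins the values of 1 miRNA.

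MiR-127-3p carried most of the cluster's reads. It had 16091 reads (536.9 RPM) in MRL/lpr and 817 reads (24.3 RPM) in B6, a fold of 22.1 (interval 20.6 to 23.7). This was the largest fold of the 10, with the narrowest interval in proportion to its size. It held 71.6% of the cluster's reads in MRL/lpr and 60.5% in B6. Among the 69 higher miRNAs it ranked 9 by RPM in MRL/lpr and 17 by RPM in B6. Without it the summed fold of the other 9 was 13.4 (interval 12.3 to 14.7).

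Mir434 was the one hairpin with both arms listed, and the arms differed. Its sequence in RefSeq is shown with both arms in capitals, the 5p arm first.
Mir434: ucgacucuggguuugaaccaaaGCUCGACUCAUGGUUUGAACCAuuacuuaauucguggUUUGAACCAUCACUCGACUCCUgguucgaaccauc

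MiR-434-3p had 396 reads (13.2 RPM) in MRL/lpr and 64 reads (1.90 RPM) in B6, a fold of 6.94 (interval 5.32 to 9.19), the smallest of the cluster. MiR-434-5p had 128 reads (4.27 RPM) in MRL/lpr and 8 reads (0.238 RPM) in B6, a fold of 18.0 (interval 8.84 to 42.5). The 5p arm thus made up 24.4% of the reads of both arms in MRL/lpr (interval 20.8 to 28.3) and 11.1% in B6 (interval 4.92 to 20.7). The ratio of the 3p fold to the 5p fold was 0.387 (interval 0.156 to 0.839), beyond counting error but resting on 8 reads in B6.

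MiR-411-5p was the second most abundant member in both libraries. It had 2362 reads (78.8 RPM) in MRL/lpr and 165 reads (4.91 RPM) in B6, a fold of 16.1 (interval 13.7 to 18.9). Its look-alike and neighbour miR-379-5p was far scarcer, with 110 reads (3.67 RPM) in MRL/lpr and 11 reads (0.327 RPM) in B6. The fold of miR-379-5p was 11.2 (interval 6.03 to 23.1), and its ratio to the fold of miR-411-5p was 0.699 (interval 0.366 to 1.47), so the folds of this pair did not differ beyond counting error.

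The other look-alike pair was also unequal in level and not distinguishable in fold. MiR-381-3p had 842 reads (28.1 RPM) in MRL/lpr and 73 reads (2.17 RPM) in B6, a fold of 12.9 (interval 10.2 to 16.7). MiR-300-3p had 193 reads (6.44 RPM) in MRL/lpr and 14 reads (0.416 RPM) in B6, a fold of 15.5 (interval 9.0 to 28.8). The ratio of the fold of miR-300-3p to that of miR-381-3p was 1.20 (interval 0.652 to 2.34).

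The last 3 listed hairpins lie within Mirg, at the far end of the cluster. MiR-410-3p had 1098 reads (36.6 RPM) in MRL/lpr and 77 reads (2.29 RPM) in B6, a fold of 16.0 (interval 12.7 to 20.4). MiR-541-5p had 1060 reads (35.4 RPM) in MRL/lpr and 97 reads (2.88 RPM) in B6, a fold of 12.3 (interval 9.95 to 15.3). MiR-409-3p had 193 reads (6.44 RPM) in MRL/lpr and 24 reads (0.714 RPM) in B6, a fold of 9.02 (interval 5.89 to 14.4). Although Mir409 and Mir410 lie close together, the ratio of the fold of miR-409-3p to that of miR-410-3p was 0.564 (interval 0.343 to 0.957).

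**Figure D2:**
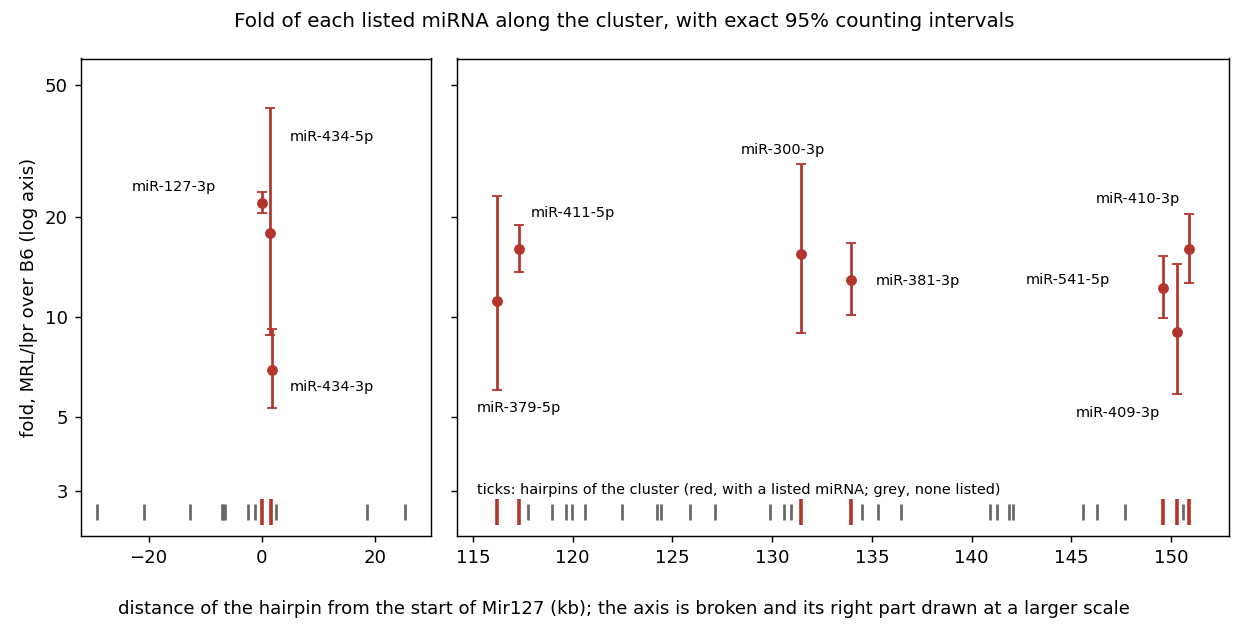
Fold of MRL/lpr over B6 on a log axis for each listed miRNA, with its exact 95% counting interval, against the distance of its hairpin from the start of Mir127 in kb. The arms of Mir434 are drawn slightly apart, ticks mark the 44 hairpins of the cluster, and the highest and lowest folds, 22.1 and 6.94, are those of neighbouring hairpins.

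The folds were alike in direction but not all of 1 size. In 14 of the 45 pairs of members the interval of the ratio of folds left out 1. MiR-434-3p was in 7 of these pairs and miR-127-3p in 6, and the 2 of them differed from each other by a ratio of 3.18 (interval 2.38 to 4.20, miR-127-3p over miR-434-3p). These intervals are not adjusted for the number of pairs. The order of the levels was nearly the same in both libraries, with a Spearman rho of 0.97 between RPM in MRL/lpr and RPM in B6 over the 10 miRNAs. These values come from the same 2 libraries, and RPM was not calibrated between miRNAs of different sequence. The pair at Rtl1 had a summed fold of 21.0 (interval 19.6 to 22.5), and the 7 miRNAs from Mir379 to Mir410 one of 14.3 (interval 13.0 to 15.7). Most reads of that pair are those of miR-127-3p.

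Depth limited the scarce members. The counts and medians that follow are likewise descriptions of a list with a minimum of 100 reads over both libraries. MiR-379-5p, with 121 reads over both libraries, stood nearest to it. For 8 of the 10 the fold was over 10, against 16.7% of all listed miRNAs. The whole interval lay over 10 for 4: miR-127-3p, miR-411-5p, miR-410-3p and miR-381-3p. The same held for listed miRNAs outside the cluster, among them miR-144-3p, miR-223-3p, miR-143-3p and miR-486-5p. Of the 20 highest folds in the table, 9 belonged to the cluster. The median fold of the cluster was 14.2, against 4.42 for the other 59 higher miRNAs and 2.79 for all listed miRNAs. The median level in MRL/lpr was 20.7 RPM for the cluster and 22.6 RPM for the other higher miRNAs. In B6 these medians were 2.04 and 4.40 RPM. The counts and medians of the cluster and of the others are not contrasted as a result. Of the 10 miRNAs, 8 had under 100 reads in B6 and passed the minimum only through MRL/lpr. Among all higher miRNAs, 34 had under 100 reads in B6. With the miRNA totals as the base in place of trimmed reads, the folds of the cluster were 5.78 to 18.4. Scaled by the median ratio of all listed miRNAs, which is itself taken over a selected set, they were 2.49 to 7.93, and none was over 10.

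**Figure D3:**
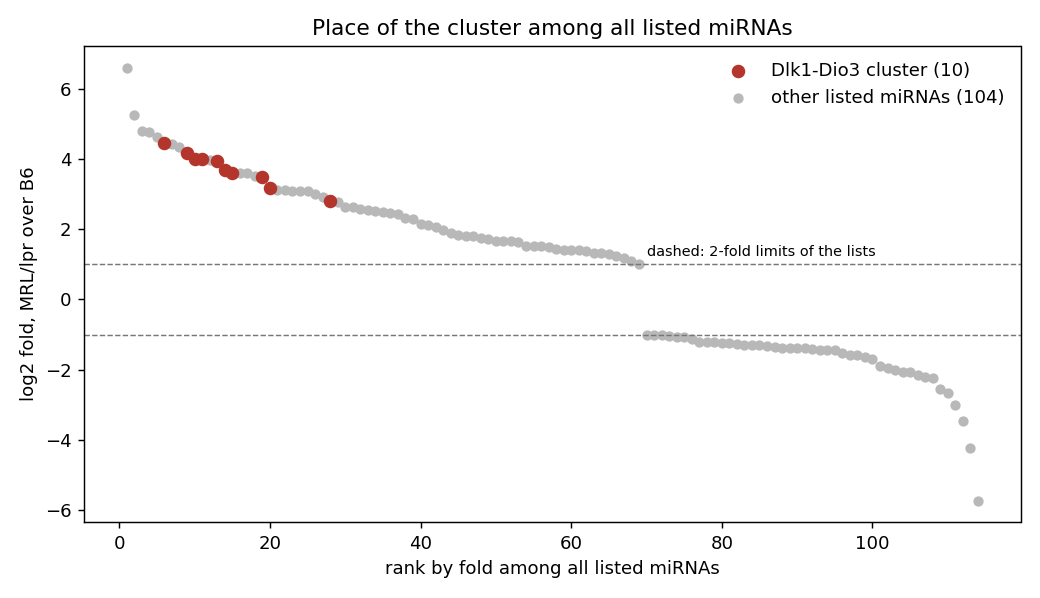
Log2 fold of MRL/lpr over B6 for all 114 listed miRNAs, ranked, with the 10 cluster miRNAs in red and the others in grey. Dashed lines are the 2-fold limits of the tables, and the cluster takes ranks 6 to 28.

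One further listed miRNA of the imprinted region lies outside the named hairpins. Mir1247 (chr12:110278048-110278129, minus strand) is next to Dio3, 534 kb beyond Mir410. MiR-1247-5p had 110 reads (3.67 RPM) in MRL/lpr and 21 reads (0.624 RPM) in B6, a fold of 5.88 (interval 3.66 to 9.87). RefSeq has 61 hairpins between Dlk1 and Dio3. With this one, 11 listed mature miRNAs came from them, all higher in MRL/lpr, as were 60.5% of all 114 listed miRNAs. These shares are not set against each other as a result. With 21 reads in B6, miR-1247-5p passed the read minimum of the tables only through MRL/lpr, as did most of the cluster miRNAs.

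Most listed miRNAs that mark other blood and tissue cells were higher in the same library. Among all 114 listed miRNAs, 60.5% were higher, and this share is not set against those of the marker lists as a result. All 6 listed mature miRNAs of an erythroid list were higher, by 5.04-fold to 97.5-fold. They summed to 4745 RPM in MRL/lpr and 388.8 RPM in B6. The 6 include the identical miR-486-5p and miR-3107-5p, which were counted once in the sums. Of the 6, miR-144-3p, miR-451a, miR-144-5p and miR-486-3p had 13, 11, 88 and 57 reads in B6. These passed the read minimum of the tables only through MRL/lpr. The myeloid miR-223-3p had 214.8 RPM in MRL/lpr and 7.94 RPM in B6. From 10 hairpin names of a stromal and endothelial list, only 3 mature miRNAs were listed. Of these, miR-143-3p (132.1 RPM in MRL/lpr and 5.32 RPM in B6) and miR-126-5p (117.6 and 13.9 RPM) were higher. MiR-10b-5p (7.64 and 17.7 RPM) was lower. Of all 652 mRNAs in the tables, 67.5% were higher in MRL/lpr. Among marker genes, 2 of 10 myeloid and neutrophil genes were higher in MRL/lpr. They are Itgam, at 28.1 FPKM in MRL/lpr and 1.71 FPKM in B6, and Cd68, at 28.7 and 7.28 FPKM. Of 7 megakaryocyte and platelet genes, 1 was higher in MRL/lpr, Ppbp (1.67 and 0.0332 FPKM). Of 10 erythroid genes, 1 was higher, the transferrin receptor Tfrc (37.9 and 15.9 FPKM). Of 10 stromal and endothelial genes, 2 were higher, Col1a2 (0.168 and 0.0175 FPKM) and Cdh5 (0.228 and 0.0840 FPKM). At the levels of these last genes a fold rests on few reads. The remaining genes of these lists did not stand in the tables. Klrd1, of a list of 6 CD8 T and NK cell genes, was lower, at 6.22 FPKM in MRL/lpr and 27.0 FPKM in B6. None of the 8 stem and progenitor genes, the 6 mast cell genes or the 7 B and plasma cell genes stood in the tables. Since the mRNA tables hold changed predicted targets only, the absence of a marker gene says nothing of its level. The part of such cells in the levels of the cluster was not tested.

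The other genes of the imprinted region were not seen in the mRNA tables. None of the 7 genes Dlk1, Meg3, Rtl1, Rian, Mirg, Dio3 and Begain was in either table, and since the tables are limited to changed predicted targets this says nothing of their levels. Of 30 imprinted genes elsewhere in the genome, Peg3, a paternally expressed zinc finger gene, was listed as higher, at 0.0672 FPKM in MRL/lpr and 0.00449 FPKM in B6, levels at which a fold rests on few reads. Of 14 genes of DNA methylation and imprint maintenance, 2 were listed, both lower in MRL/lpr, as were 32.5% of all listed mRNAs. Both encode enzymes that oxidise methylcytosine: Tet1, at 0.328 FPKM in MRL/lpr and 1.86 FPKM in B6, and Tet3, at 9.16 FPKM in MRL/lpr and 20.4 FPKM in B6. None of 12 miRNA processing genes was listed.

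Predicted targets of the cluster were among the mRNAs lower in MRL/lpr. In the deposited table, each lower mRNA carries the names of the higher miRNAs predicted to target it. Of its 212 genes, 55 (25.9%) were paired with at least 1 cluster miRNA, and 32 of these with cluster miRNAs alone. The cluster gave 9 of the 51 higher miRNAs that have a partner (17.6%), and 56 of the 330 pairs of a gene and a miRNA (17.0%). It gave 10 of all 69 higher miRNAs (14.5%), so its part in the pairs lay near its part in the list. As the table holds only genes lower by at least 2-fold, the direction of these genes is set by the table. Their values are read as FPKM, with 1 library per strain and no depth given. The median log2 fold was -1.54 over the 55 partners and -1.56 over all 212 genes. At least 4-fold lower were 19 of the 55 partners (34.5%), against 29.2% of the table. In B6, 25.5% of the partners and 30.2% of the table had at least 10 FPKM.

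**Figure D4:**
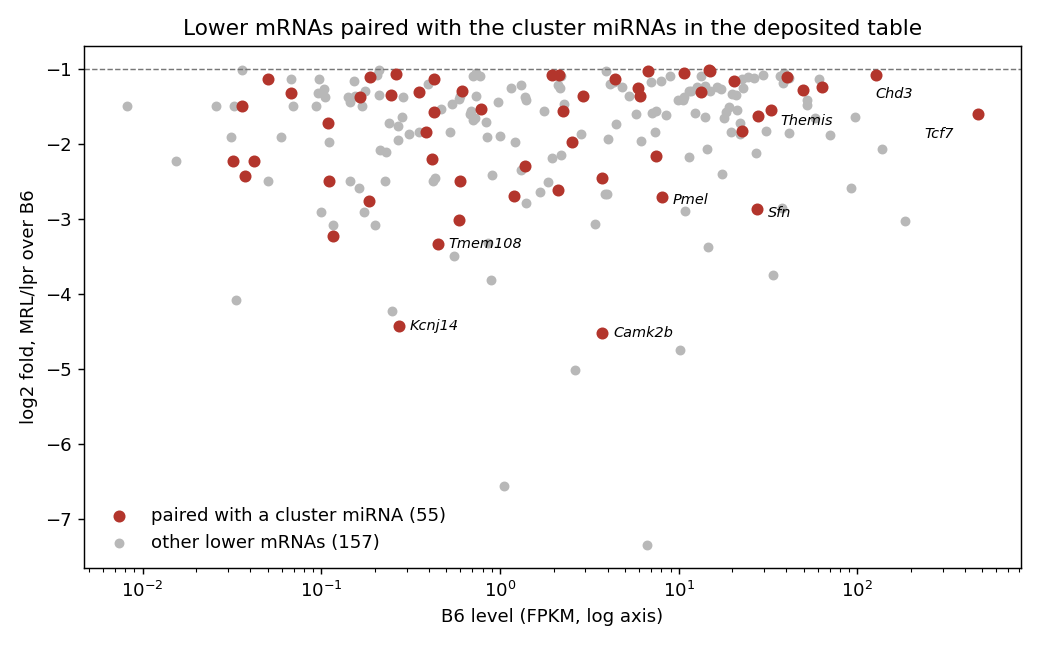
Log2 fold of MRL/lpr over B6 against the B6 level in FPKM on a log axis for the 212 genes of the table of lower mRNAs; the dashed line is the 2-fold limit. The 55 genes paired with a cluster miRNA (red) lie across the range of the other 157 (grey), with Tcf7 as the gene of highest B6 level at 472.8 FPKM.

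Of the 10 partners of highest B6 level, Tcf7, Themis, Rnf125 and Nr4a3 are given first. Tcf7, which encodes the T cell transcription factor TCF-1, had 156.8 FPKM in MRL/lpr and 472.8 FPKM in B6, a log2 fold of -1.59. It had the highest B6 level of the whole table, and its one partner was miR-541-5p. Themis, which shapes T cell receptor signalling in thymocytes, had 11.4 FPKM in MRL/lpr and 33.0 FPKM in B6, a log2 fold of -1.54. It was the only gene paired with 2 cluster miRNAs, miR-300-3p and miR-379-5p, and with no miRNA from outside the cluster. Rnf125, a ubiquitin ligase of T cells, had 20.5 FPKM in MRL/lpr and 49.5 FPKM in B6 and was paired with miR-434-3p. Nr4a3, a nuclear receptor induced by T cell receptor signals, had 6.39 FPKM in MRL/lpr and 22.5 FPKM in B6. It was paired with miR-410-3p and also with miR-146a-5p and miR-146b-5p.

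The other 6 of the 10 partners of highest B6 level differed in known role. Chd3, a helicase of the NuRD complex, had 60.4 FPKM in MRL/lpr and 126.7 FPKM in B6 (log2 fold -1.07) and was paired with miR-410-3p. Chd2, a remodeller of the same family, had 18.7 FPKM in MRL/lpr and 40.2 FPKM in B6 (log2 fold -1.10) and was paired with miR-381-3p. Tet3, described above, had a log2 fold of -1.15 and was paired with miR-381-3p and with 3 miRNAs from outside the cluster. Rapgef6, an activator of Rap proteins, had 27.1 FPKM in MRL/lpr and 63.6 FPKM in B6 (log2 fold -1.23), paired with miR-410-3p. The gene 4932438A13Rik had 8.99 FPKM in MRL/lpr and 27.7 FPKM in B6 (log2 fold -1.62), paired with miR-381-3p and miR-27a-3p. The last of them, Sfn, is given with miR-127-3p.

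The most abundant cluster miRNA had the fewest partners of those that had any. MiR-127-3p was paired with 1 gene, Sfn, which encodes 14-3-3 sigma, a brake on cell division in epithelial cells. Sfn had 3.78 FPKM in MRL/lpr and 27.5 FPKM in B6, a log2 fold of -2.87, the largest among the partners with at least 10 FPKM in B6. MiR-434-5p had no partner. The most partners were those of miR-410-3p, with 12 genes, and miR-381-3p, with 11, while the largest number for any higher miRNA was 14. MiR-300-3p had 7, miR-541-5p and miR-409-3p had 6 each, miR-411-5p and miR-434-3p had 5 each, and miR-379-5p had 3. The look-alike miR-300-3p and miR-381-3p had no partner in common, nor did miR-379-5p and miR-411-5p.

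**Figure D5:**
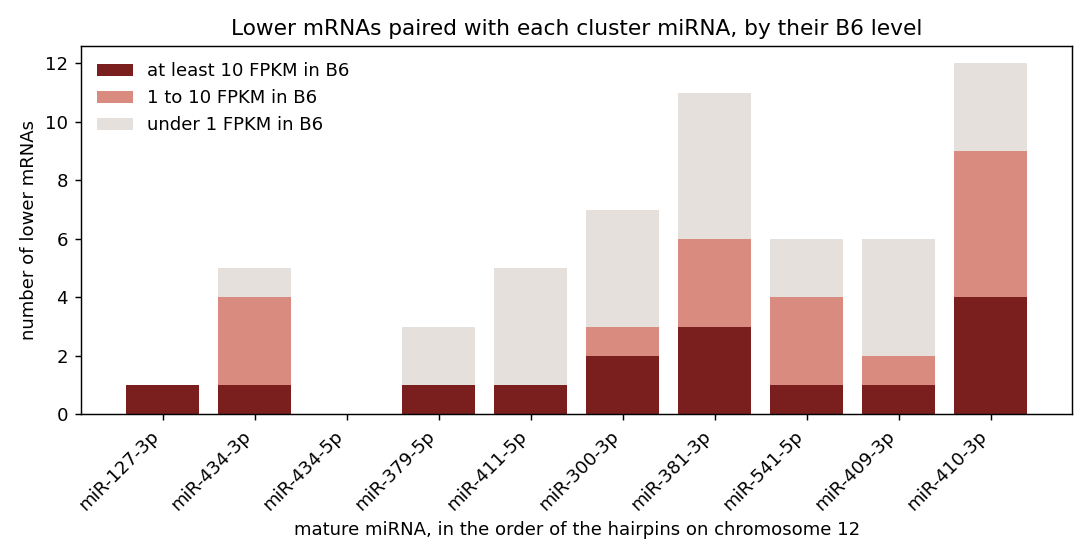
Number of lower mRNAs paired with each cluster miRNA in the deposited table, split by their B6 level. MiR-410-3p has 12 partners, 4 of them at 10 FPKM or more, while miR-127-3p has 1 and miR-434-5p has none.

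Of the 10 largest folds among the partners, 9 were in genes under 10 FPKM in B6, and the other was that of Sfn. Camk2b, a calmodulin-dependent kinase best known from neurons, had 0.163 FPKM in MRL/lpr and 3.74 FPKM in B6 (log2 fold -4.52), paired with miR-541-5p and miR-23a-3p. Pmel, a protein of the melanosome, had 1.24 FPKM in MRL/lpr and 8.04 FPKM in B6 (log2 fold -2.70), paired with miR-409-3p. The potassium channel gene Kcnj14 had 0.0127 FPKM in MRL/lpr and 0.273 FPKM in B6 (log2 fold -4.43), paired with miR-379-5p. Tmem108, Naalad2, Kcnk1, Corin, Epb4.1l1 and Cldn10 had log2 folds of -3.34, -3.23, -3.01, -2.76, -2.68 and -2.61, with B6 levels of 0.116 to 2.11 FPKM. Of the 55 partners, 25 (45.5%) stayed below 1 FPKM in MRL/lpr and in B6, as did 43.4% of all 212 lower mRNAs. Folds at such levels rest on few reads.

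Further partners, picked after their values were seen, have known roles in immune cells or in signalling. Il17a, the cytokine of Th17 cells, had 0.932 FPKM in MRL/lpr and 1.95 FPKM in B6 (log2 fold -1.07), paired with miR-300-3p alone. Jag2, a ligand of Notch receptors, had 0.280 FPKM in MRL/lpr and 1.37 FPKM in B6 (log2 fold -2.29), paired with miR-381-3p alone. Klf9, a transcription factor induced by glucocorticoids, had 2.47 FPKM in MRL/lpr and 5.89 FPKM in B6 (log2 fold -1.25), paired with miR-434-3p alone. Il17a and Jag2 were under 1 FPKM in MRL/lpr, a level at which a fold rests on few reads.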

How the data were processed

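Per the labels, RNA of splenic CD4+ T cells was sequenced as 1 small RNA and 1 mRNA library for each of 1 MRL/lpr and 1 B6 mouse; the trimmer, aligner, genome builds and release of miRBase that were used were not given in the sources used here. The authors deposited read counts per mature miRNA, RPM values (counts over total trimmed reads) and the ratio of the RPM values, for miRNAs that differ 2-fold or more and have 100 reads or more over both libraries. The authors' total of miRNA reads was 21.8% of trimmed reads in MRL/lpr and 18.1% in B6. One read is worth 0.0334 RPM in MRL/lpr and 0.0297 RPM in B6. For mRNAs, the authors deposited values that follow the Cuffdiff layout and were taken as FPKM, although no unit is named. Each mRNA carries the miRNAs of a prediction list, labelled NTR_TS_2Fup or NTR_TS_2Fdown. The authors' own mRNA fold changes, p-values and q-values were not used.

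Folds and intervals were recomputed with Python 3.11.15, NumPy 2.4.6, SciPy 1.17.1 and pandas 2.3.3, and plotted with Matplotlib 3.10.9. Ratios of folds between members are plain ratios of the 2 folds, with exact 95% limits taken from the conditional odds ratio of reads. The interval procedure was tested only on simulated reads drawn independently, as the interval assumes. That test cannot show how the intervals hold for real reads, which are not independent molecules. Positions and sequences are of RefSeq, GRCm38.p6. All 44 hairpin numbers were found there on chromosome 12, with Mir544 and Mir666 by position only; 91 of the 114 listed miRNAs were matched, so others of the region could be missed. The partner genes named are the 10 of highest B6 level, the 10 of largest fold and those paired with 2 or more cluster miRNAs; Il17a, Jag2 and Klf9 were added after their values were seen. The members, lists and rules were chosen with earlier results of these data known. Alternatives were other fold, read and level minimums, added RPM or FPKM values, other scalings and other ways of choosing members.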

Additional observations from a re-analysis of the deposited data

How the results depend on the processing

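No paired analysis was possible because each strain had 1 library per assay and no test was made. Of the 10 listed cluster miRNAs, 4 had at least 1000 reads over both libraries. The other ways of counting gave 8 to 11, the last for all listed miRNAs between Dlk1 and Dio3, an alternative added after the data were seen. The median log2 fold of the cluster, 3.82, was 2.34 when scaled by the median ratio of all listed miRNAs, 2.80 and 1.31 with 1 and 10 RPM added, and 3.24 at the lower counting limits. All listed miRNAs differ at least 2-fold by construction, so the first of these scalings rests on a selected set. The summed fold was 13.4 without miR-127-3p. With 10 RPM added, 5 of the 10 folds were at least 2. Of the 55 partner genes, 19 were at least 4-fold lower, 30 had at least 1 FPKM and 14 at least 10 FPKM in B6, 18 were at least 2-fold lower with 1 FPKM added, and 32 were paired with cluster miRNAs alone. Their median log2 fold, -1.54, was -0.84 with 1 FPKM added. No alternative turned a direction, which added values and common factors of this size cannot do to such folds. Depth limits the miRNAs with few B6 reads most, from 8 reads for miR-434-5p upward.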
